A study of Mus musculus with 12 samples.

Results

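The genes described here pattern the presomitic mesoderm and divide it into somites. The members are 34 named genes, out of 22467 transcripts in the deposited table. They were chosen by symbol from their known roles, with earlier results of these data known. They comprise 8 genes of the presomitic mesoderm, 13 genes of Notch signaling and the segmentation clock, and 13 genes of the formed somite. Each symbol was found once in the table. Of the 34, 32 had enough ribosome-protected fragment (RPF) reads to be tested, and Mesp1 and Heyl did not, with 4 to 8 and 2 to 15 RPF counts per library.

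Paraxial mesoderm leaves the primitive streak and tailbud as presomitic mesoderm, which is kept in an immature state by Wnt and FGF signals from the tail. Oscillating Notch signaling, set by a feedback loop of the repressor Hes7 and the glycosyltransferase Lfng, gives the rhythm at which blocks of cells separate at its anterior end. Mesp2 and the Ripply proteins then place the somite border, and transcription factors such as Meox1, Tcf15 and Uncx give the new somite its epithelial form, its polarity and its later fates.

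Whole embryos at embryonic day 8.5 were studied in 2 genotypes, 3 wild-type embryos (Rpl10a +/+) and 3 Rpl10a LOF/LOF embryos. Rpl10a encodes RPL10A/uL1, a protein of the large ribosomal subunit at the base of the L1 stalk, and the LOF allele, made by genome editing of an intron in a C57BL/6 background, encodes a protein with extra residues at its N-terminus that retains part of its function. All cells of the LOF/LOF embryos carry the allele, so the data do not separate the mesoderm from the rest of the embryo. Every embryo was lysed singly, and its lysate gave 1 RPF library by ribosome profiling, which sequences the mRNA stretches covered by ribosomes, and 1 RNA library, 12 in all.

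RPF libraries held 7041357 to 10863499 counts and RNA libraries 9132521 to 26561843. Values are given as CPM, counts scaled to the library total, after TMM normalization, and always in the order of replicates 1, 2 and 3. Rpl10a itself had 1562, 1611 and 1679 CPM in RPF of the wild-type and 1125, 1039.6 and 939.7 CPM in RPF of the LOF/LOF embryos, a log2 fold change of -0.64 (SE 0.07, adjusted p = 0.00689). The labels do not give the sex of the embryos. The summed RPF level of 4 Y-linked genes was 181, 174 and 163 CPM in the wild-type and 9.33, 153 and 0.380 CPM in the LOF/LOF embryos, so that LOF/LOF replicates 1 and 3 stood apart, and the genes given in full were also fitted with a Y-linked covariate and without these 2 embryos. A list of 13 visceral endoderm markers, such as Afp and Ttr, was lower in the LOF/LOF embryos as well. In RPF 11 of 13 were called lower and in RNA 13 of 13, against 1.15% and 3.25% of all transcripts. Their summed RPF level was 6551 to 8595 CPM in the wild-type and 2319 to 4936 CPM in the LOF/LOF embryos. The part of this tissue in the values of the segmentation genes was not tested.

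Msgn1, Lfng and Dll1 were the segmentation genes called lower in RPF of Rpl10a LOF/LOF embryos. A transcript was called when its adjusted p (edgeR quasi-likelihood test, Benjamini-Hochberg over 12576 transcripts) was below 0.1. In RPF, 3 of the 32 members were called, all lower, namely Msgn1, Lfng and Dll1, and none was called higher. Of all transcripts tested, 2.19% were called, 1.15% lower and 1.05% higher. At an unadjusted p below 0.05 the test gave 10 members lower and none higher, against 6.61% and 7.12% of all transcripts. All 3 calls were lost without wild-type replicate 1, 2 or 3, without LOF/LOF replicate 3 and with the Y-linked covariate. In these fits few transcripts of any kind were called lower, 0.016%, 0% and 0.537% of all without wild-type replicate 1, 2 and 3, 0.113% without LOF/LOF replicate 3 and 0.0477% with the covariate. Every LOF/LOF embryo was below every wild-type embryo in RPF for 9 members (Msgn1, Tbx6, Cer1, Hes7, Lfng, Dll1, Notch1, Rbpj and Pcdh19), and every LOF/LOF embryo was above for none, against 9.45% and 9.92% of all transcripts. These are whole embryos, in which fewer cells of a type and less RNA per cell cannot be told apart.

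The groups were described by their counts and medians. In RPF, 6 of 7 presomitic genes had a log2 fold change below 0, with a median of -0.41. In the Notch and clock group it was 10 of 12, with a median of -0.20, and in the formed somite 5 of 13, with a median of 0.05. Of all transcripts, 49.1% were below 0 and the median was 0.00358. Whether the groups differ from one another was not tested. By embryo, the median over the presomitic genes of the log2 ratio to the mean of the wild-type embryos ran at -0.07, 0.11 and -0.04 in the wild-type and -0.41, -0.50 and -0.11 in the LOF/LOF embryos. LOF/LOF replicate 3 was thus closest to the wild-type range, and the genotypes did not overlap. For the formed somite the same medians were -0.01, 0.03 and 0.01 and -0.03, -0.12 and -0.02, and for the Notch and clock genes -0.01, 0.03 and -0.02 and -0.11, -0.23 and -0.17. These medians did not overlap either, though the nearest embryos of the formed somite were almost level. The wild-type embryos are part of the mean they are set against, so their medians lie around 0 by construction. No such medians over all transcripts are given, and a lower level of any group cannot be read from this separation. For the formed somite, the fitted median of 0.05 had the other sign. The summed RPF levels did overlap, at 920.4, 954 and 928 CPM in wild-type and 884, 821 and 928 CPM in LOF/LOF embryos for the Notch and clock genes and at 325, 329.8 and 305 and 336, 298 and 308 CPM for the formed somite. For the presomitic genes they were separate, at 80.4, 85.1 and 85.5 and 64.1, 57.4 and 69.7 CPM.

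**Figure D1:**
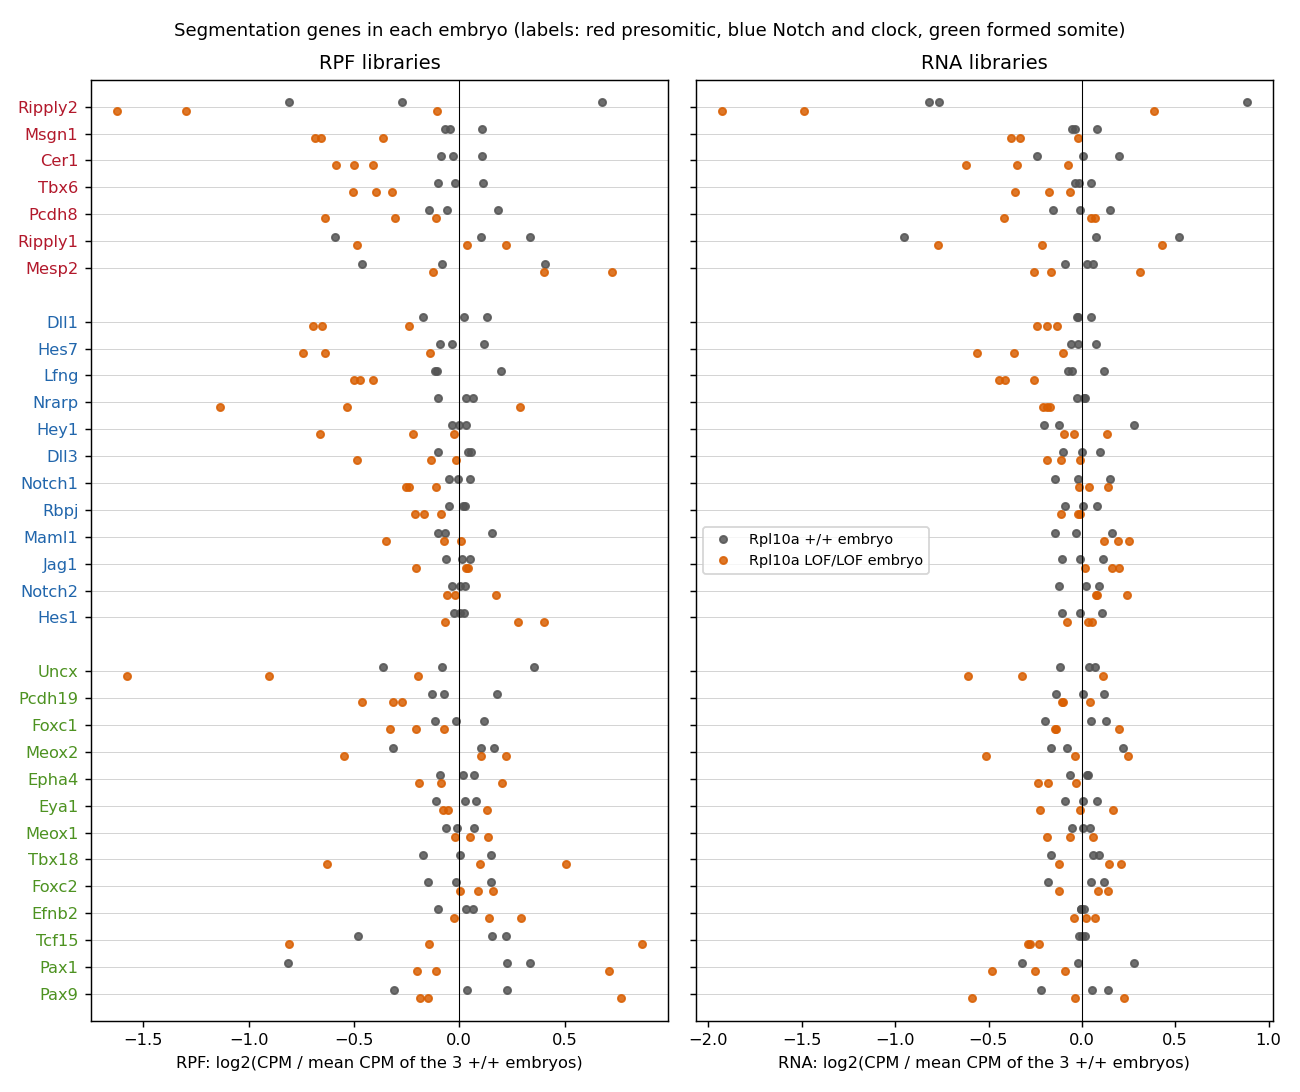
RPF (left) and RNA (right) level of each of the 32 tested genes in each embryo, as log2 of its CPM over the mean CPM of the 3 wild-type embryos on the x axis. Grey points are wild-type and orange points Rpl10a LOF/LOF embryos. In RPF the orange points of Msgn1, Cer1, Tbx6, Dll1, Hes7, Lfng, Notch1, Rbpj and Pcdh19 all lie left of the grey ones.

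Msgn1, a transcription factor that promotes presomitic differentiation, had the largest called RPF difference of the members in the reported edgeR fit, with Dll1 close at -0.52. DESeq2 did not call Msgn1 in RPF (adjusted p = 0.109). Its transcript lies at chr12:11208360-11208972 (GRCm38, minus strand). RPF levels were 17.1, 19.3 and 17.4 CPM in wild-type and 11.4, 11.2 and 13.98 CPM in LOF/LOF embryos. The groups did not overlap, and the mean fell from 17.9 ± 1.20 CPM to 12.2 ± 1.57 CPM (SD, n = 3), a log2 fold change of -0.55 (SE 0.13, adjusted p = 0.0855). Counts behind these values were 78 to 187 per library. RNA levels of Msgn1 were 7.11, 7.02 and 7.71 CPM and 5.796, 5.59 and 7.18 CPM. LOF/LOF replicate 3 fell within the wild-type range in RNA, and the RNA log2 fold change of -0.26 (SE 0.13) was not called (adjusted p = 0.346), and was -0.42 with the Y-linked covariate.

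Tbx6, the T-box factor that directs cells to paraxial mesoderm instead of neural tissue, had RPF levels of 24.8, 27.2 and 23.5 CPM in wild-type and 20.1, 17.7 and 19.1 CPM in LOF/LOF embryos. All 3 LOF/LOF embryos lay below all 3 wild-type embryos, with a log2 fold change of -0.41 (SE 0.11), but the adjusted p of 0.118 was just outside the threshold. In RNA, Tbx6 was at 9.37, 8.82 and 8.96 CPM and 8.002, 8.66 and 7.08 CPM, again without overlap, and its log2 fold change was -0.17 (SE 0.11, adjusted p = 0.488). It was -0.040 with the Y-linked covariate, -0.055 without LOF/LOF replicates 1 and 3 and -0.11 without LOF/LOF replicate 3. Cer1, a secreted antagonist of Nodal, BMP and Wnt ligands that marks the anterior presomitic mesoderm and the anterior endoderm, was also separate between the genotypes in RPF. Its RPF levels were 5.12, 5.85 and 5.32 CPM and 4.08, 3.84 and 3.61 CPM, with a log2 fold change of -0.50 (SE 0.18, adjusted p = 0.241) and 28 to 56 counts per library.

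Pcdh8 is a protocadherin of the forming segment border. It had 28.7, 27.04 and 33.98 CPM in RPF of the wild-type and 24.2, 19.2 and 27.7 CPM in RPF of the LOF/LOF embryos. LOF/LOF replicate 3 lay between wild-type replicates 1 and 2, and the log2 fold change was -0.33 (SE 0.14, adjusted p = 0.330), or -0.20 without LOF/LOF replicate 2. It was -0.66 with the Y-linked covariate (adjusted p = 0.197 from edgeR) and -0.64 without LOF/LOF replicates 1 and 3. That last fit keeps 1 LOF/LOF embryo, takes its spread from the wild-type embryos and was added after the data had been seen. The genes of the border itself were present in few reads. Mesp2, the factor that sets border and polarity, was at 1.28, 2.34 and 1.67 CPM in wild-type and 2.33, 2.91 and 1.62 CPM in LOF/LOF embryos, and it was the presomitic gene with a log2 fold change above 0, at 0.38 with a 95% interval of -0.33 to 1.08. It was 0.61 without wild-type replicate 2 or LOF/LOF replicate 3, 0.18 without wild-type replicate 1 and 0.15 without LOF/LOF replicate 2, and 0.80 with the Y-linked covariate and 0.75 without LOF/LOF replicates 1 and 3. Ripply1 and Ripply2, co-repressors that end Mesp2 activity, had RPF log2 fold changes of -0.01 (-0.69 to 0.68) and -0.77 (-1.85 to 0.31). With 4 to 25 RPF counts per library for these 3 genes, intervals of this width do not show whether the border program differed.

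The bases around the start codon of the presomitic, Notch and clock genes with non-overlapping RPF levels are shown for their leaders, which ran from short to long. Each line gives bases of the GENCODE M21 transcript (GRCm38) 5′ to 3′, with the annotated start codon in capitals.
Msgn1: tgcctcccgggtATGgacaacctgggt
Tbx6: agaaactacaacATGtaccatccacga
Cer1: gaatcaggaagcATGcatctcctctta
Hes7: tccggaggagcaATGgtcacccgggag
Lfng: ccgccggccaccATGctccagcggtgc
Dll1: tccagcggtaccATGggccgtcggagc
Notch1: tggcgagcaggcATGccacggctcctg
Rbpj: gtccccgtagtaATGccctccggtttt
The annotated 5′UTRs of these genes are 24 nt in Msgn1, 24 nt in Tbx6, 65 nt in Cer1, 70 nt in Hes7, 96 nt in Lfng, 736 nt in Dll1, 264 nt in Notch1 and 136 nt in Rbpj. Over the groups, the median 5′UTR was 42 nt in the 7 presomitic genes, 257.5 nt in the 12 Notch and clock genes and 416 nt in the 13 genes of the formed somite, with 175 nt over all transcripts tested. An AUG upstream of the start codon was present in 1 of 7, 8 of 12 and 10 of 13 of these leaders, and in 49.8% of all. Dll1, with a long leader and 1 upstream AUG, and Msgn1, with a short leader and none, were thus both among the called genes.

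Of the Notch ligands, 1 was called in RPF, and the differences between ligands were not tested. Dll1, the ligand of the presomitic mesoderm whose loss disrupts segmentation, lies at chr17:15367354-15375976 (GRCm38, minus strand). Its RPF levels were 51.2, 55.4 and 44.8 CPM in wild-type and 42.7, 32.1 and 31.2 CPM in LOF/LOF embryos. LOF/LOF replicate 1 was near the lowest wild-type embryo and the other two were well below it, and the mean fell from 50.5 ± 5.31 CPM to 35.3 ± 6.396 CPM (SD, n = 3), a log2 fold change of -0.52 (SE 0.13, adjusted p = 0.0901). Dll3, a ligand that acts within the cell and inhibits Notch, was at 56.7, 57.2 and 51.4 CPM and 54.5, 39.3 and 50.2 CPM, which overlapped, with -0.20 (SE 0.11, adjusted p = 0.483). Jag1, a ligand of many embryonic tissues, had a log2 fold change of -0.04 with a 95% interval of -0.22 to 0.14.

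Lfng, the glycosyltransferase that modifies Notch receptors and whose pulses are part of the clock, was called in RPF and in RNA. It lies at chr5:140607320-140615545 (GRCm38, plus strand). RPF levels were 28.6, 35.5 and 28.8 CPM in wild-type and 21.9, 23.3 and 22.3 CPM in LOF/LOF embryos. The 3 LOF/LOF embryos were close to one another and below every wild-type embryo, with means of 30.9 ± 3.91 CPM and 22.5 ± 0.717 CPM (SD, n = 3) and a log2 fold change of -0.46 (SE 0.11, adjusted p = 0.0912). In RNA it was at 38.8, 43.7 and 38.2 CPM and 33.8, 29.6 and 30.2 CPM, with a log2 fold change of -0.37 (SE 0.09, adjusted p = 0.0530). This RNA call was lost without wild-type replicate 1 or 2 or LOF/LOF replicate 2 or 3 (adjusted p from edgeR of 0.113 to 0.162) and with the Y-linked covariate. The RNA log2 fold change was -0.39 to -0.29 without these embryos and -0.43 with the covariate. Lfng was the 1 member called in RNA, where 5.02% of all transcripts were called, 3.25% lower and 1.77% higher. At an unadjusted p below 0.05, 6 members were lower and 1 higher in RNA, against 9.6% and 7.44% of all transcripts.

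Of the receptors, Notch1, the main receptor of the presomitic mesoderm, had 142, 152 and 146 CPM in RPF of the wild-type and 124, 123 and 136 CPM in RPF of the LOF/LOF embryos. The groups were separate, though the difference was small, at -0.20 (SE 0.07, adjusted p = 0.230). Its RNA went the other way in sign, with 0.05 (SE 0.07) and overlapping embryos. Notch2, the related receptor, had a log2 fold change of 0.04 in RPF with a 95% interval of -0.12 to 0.20. In the nuclear complex, Rbpj, the DNA-binding partner of the cleaved receptor, was at 101, 105 and 106 CPM and 98.1, 92.6 and 89.8 CPM in RPF, separate but close, with -0.15 (SE 0.07, adjusted p = 0.355). Maml1, its coactivator, had an RPF log2 fold change of -0.12 (SE 0.11) and an RNA log2 fold change of 0.19 (SE 0.08), neither called. Without wild-type replicate 2 it was the 1 member called in RNA, and called higher, as were 2.09% of all transcripts.

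Among Notch targets, Hes7, the oscillating repressor at the core of the mouse clock, had RPF levels of 16.9, 15.2 and 14.6 CPM in wild-type and 14.1, 10.01 and 9.32 CPM in LOF/LOF embryos. LOF/LOF replicate 1 lay just below the lowest wild-type embryo and the other two further below, and the log2 fold change of -0.50 (SE 0.16) was as large as that of the called genes but had an adjusted p of 0.192. In RNA, Hes7 was at 8.92, 9.52 and 8.67 CPM and 7.03, 8.41 and 6.11 CPM, also without overlap, with -0.31 (SE 0.13, adjusted p = 0.257), or -0.088 with the Y-linked covariate and -0.11 without LOF/LOF replicates 1 and 3. Hes1, a repressor made in most tissues of the embryo, was at 81.6, 78.8 and 80.4 CPM and 97.4, 76.5 and 106 CPM in RPF, with LOF/LOF replicates 1 and 3 above and replicate 2 below the wild-type embryos and a log2 fold change of 0.22 (SE 0.11, adjusted p = 0.409). Hey1, a related repressor, and Nrarp, a feedback inhibitor of Notch, had RPF log2 fold changes of -0.27 and -0.39, with 95% intervals of -0.59 to 0.06 and -1.15 to 0.37. Nrarp RNA, counted in 331 to 1081 reads per library against 7 to 20 in RPF, was 40.3, 41.5 and 41.4 CPM in wild-type and 36.1, 36.5 and 35.5 CPM in LOF/LOF embryos, without overlap and with -0.19 (SE 0.06, adjusted p = 0.161).

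**Figure D2:**
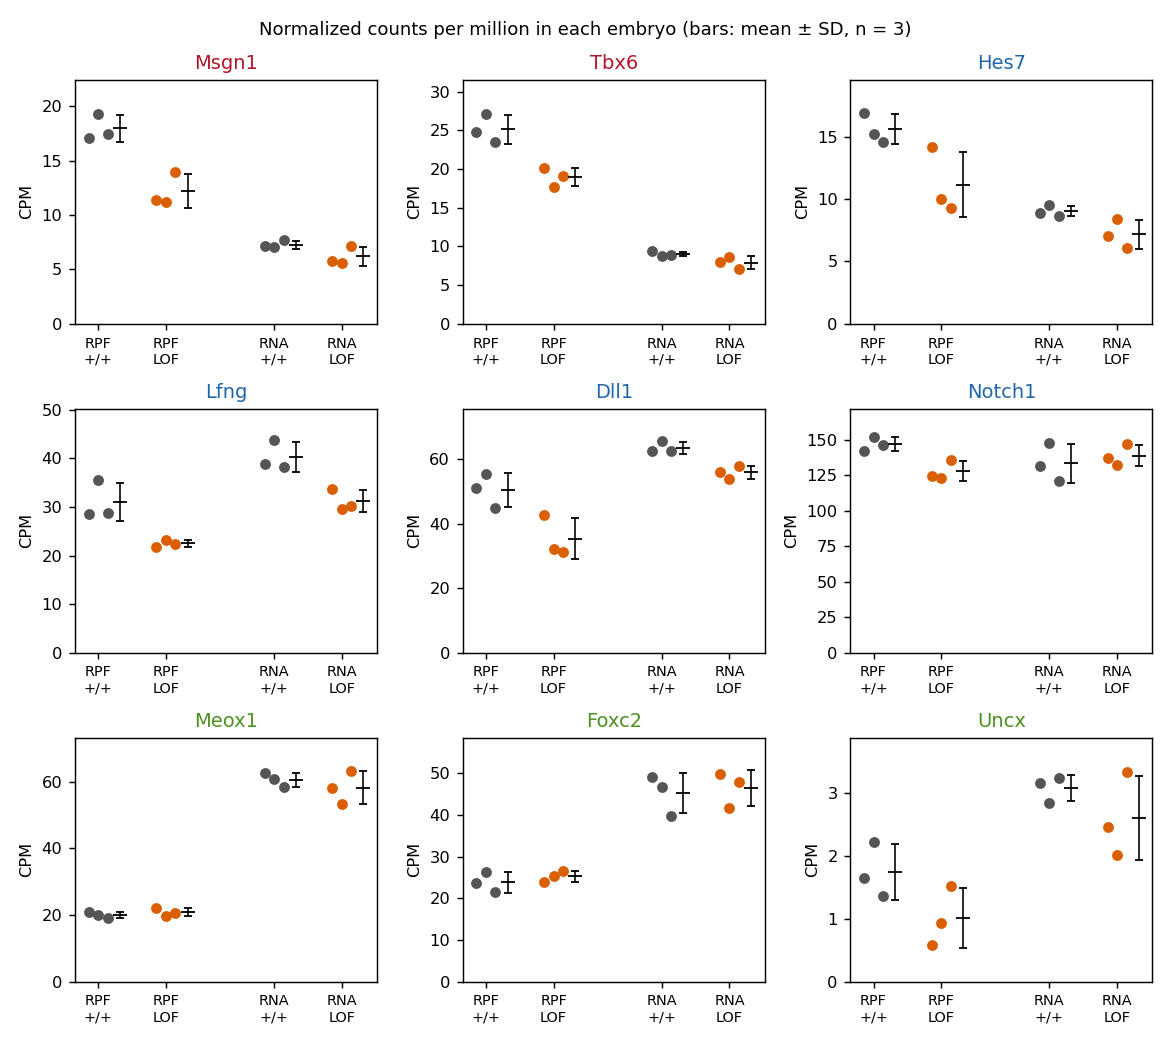
RPF and RNA level in CPM (y axis, from 0) of 9 genes in each of the 3 wild-type (+/+, grey) and 3 Rpl10a LOF/LOF (LOF, orange) embryos, with the mean and SD beside each group. Msgn1, Tbx6, Hes7, Lfng, Dll1 and Notch1 are separate between genotypes in RPF, and Meox1, Foxc2 and Uncx overlap.

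In the formed somite no gene was called in RPF, RNA or their ratio by the reported fits. Without LOF/LOF replicate 1, Epha4 was called lower in RNA beside Lfng, where 2.01% of all transcripts were called lower. Pcdh19 was called lower in RPF by limma-voom with sva and without LOF/LOF replicate 2, where 5.3% and 6.54% of all transcripts were called lower. Meox1, a homeobox factor of the early somite, had RPF levels of 21.03, 19.9 and 19.2 CPM in wild-type and 22.01, 19.8 and 20.7 CPM in LOF/LOF embryos. The embryos of both genotypes were interleaved, and the log2 fold change was 0.05 with a 95% interval of -0.18 to 0.28, which does not reach the size measured for Msgn1. Foxc2, a forkhead factor needed with Foxc1 for somite formation, was at 23.6, 26.5 and 21.5 CPM and 23.9, 25.4 and 26.6 CPM, with 0.09 and an interval of -0.15 to 0.33. Foxc1 had -0.19 (-0.43 to 0.05). Epha4 and its ligand Efnb2, which keep cells apart at the somite border, had -0.02 (-0.23 to 0.20) and 0.14 (-0.09 to 0.37).

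Pcdh19, a cell adhesion protein of the protocadherin family, was the somite gene with separate RPF levels, at 28.3, 33.7 and 27.2 CPM in wild-type and 23.9, 24.7 and 21.6 CPM in LOF/LOF embryos. Its log2 fold change was -0.35 (SE 0.11, adjusted p = 0.201), and its RNA overlapped, with -0.05 (SE 0.07). With sva and without LOF/LOF replicate 2 the adjusted p in RPF was 0.0848 and 0.0750, from limma and edgeR, and with the Y-linked covariate the log2 fold change was -0.25 (adjusted p = 0.709). Pcdh19 lies on the X chromosome, as does Ripply1. Uncx, which marks the posterior side of each somite, had 1.65, 2.22 and 1.36 CPM and 0.583, 0.931 and 1.52 CPM in RPF, from 4 to 19 counts. LOF/LOF replicate 3 was within the wild-type range, and the log2 fold change of -0.69 had a 95% interval of -1.50 to 0.13 and ran from -1.14 without LOF/LOF replicate 3 to -0.46 without LOF/LOF replicate 1. Tcf15, the factor of somite epithelialization, was at 1.28, 1.99 and 2.08 CPM and 1.02, 3.26 and 1.62 CPM in RPF, with both the highest and the lowest embryo LOF/LOF. Its RNA was far better covered, at 16.03, 15.7 and 15.9 CPM and 13.5, 12.99 and 13.1 CPM, without overlap and with a log2 fold change of -0.26 (SE 0.08, adjusted p = 0.129). The other somite genes in RPF (Meox2, Tbx18, Pax1, Pax9 and Eya1) had log2 fold changes from -0.04 for Meox2 to 0.21 for Pax9, all with overlapping embryos. In 6 of the 13 somite genes at least 1 library had fewer than 30 RPF counts, as in 4 of 7 presomitic and 1 of 12 Notch and clock genes.

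In RNA, the presomitic genes had a median log2 fold change of -0.26 with 7 of 7 below 0, the Notch and clock genes -0.02 with 6 of 12 below 0, and the formed somite -0.05 with 10 of 13 below 0. Of all transcripts, 50.6% were below 0. Every LOF/LOF embryo was below every wild-type embryo in RNA for 6 members (Tbx6, Hes7, Lfng, Dll1, Nrarp and Tcf15), against 12.6% of all transcripts, and above for none, against 10.2%. Dll1 RNA was 62.6, 65.7 and 62.4 CPM and 55.9, 53.8 and 58.0 CPM, a log2 fold change of -0.19 (SE 0.06, adjusted p = 0.108), and was not called. By limma-voom it was called beside Lfng, where 3.63% of all transcripts were called lower.

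The change of RPF relative to RNA, which asks whether ribosome occupancy moved beyond the mRNA, was tested in a joint model of the 12 libraries, as the term by which the genotype difference in RPF departs from that in RNA. No member was called, and no transcript was called in all (0%), with a lowest adjusted p of 0.974. This model had no embryo term, although the RPF and RNA libraries of an embryo are paired. With the embryo as a block no member was called either, and the lowest adjusted p from edgeR over all transcripts was 0.196. At an unadjusted p below 0.05, 4 members were lower (Dll1, Notch1, Maml1 and Pcdh19) and none higher, against 1.96% and 2.48% of all transcripts. Over all tested transcripts, DESeq2 called 4 ratios and limma-voom 0. Without LOF/LOF replicate 2 the edgeR model called 23 ratios, 22 of them lower. No member was among the calls of any of these fits. Dll1 had log2 RPF/RNA values of -0.29, -0.25 and -0.48 in wild-type and -0.39, -0.74 and -0.89 in LOF/LOF embryos. LOF/LOF replicate 1 was within the wild-type range, and the fitted difference was -0.34 (SE 0.14) with an unadjusted p of 0.0332 from the edgeR model. Notch1 had 0.11, 0.04 and 0.28 in wild-type and -0.14, -0.10 and -0.11 in LOF/LOF embryos. All 3 LOF/LOF values were below all 3 wild-type values, with a difference of -0.25 (SE 0.10) and an unadjusted edgeR p of 0.0317.

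Pcdh19 was likewise separate, at -1.38, -1.24 and -1.29 against -1.66, -1.47 and -1.66, with -0.30 (SE 0.13), or -0.17 both with the Y-linked covariate and without LOF/LOF replicates 1 and 3. Msgn1 had 1.27, 1.46 and 1.17 in wild-type and 0.97, 1.00 and 0.96 in LOF/LOF embryos, separate as well, and the fitted difference was -0.28 with a 95% interval of -0.66 to 0.10. Pcdh8 completed the 4 members with every LOF/LOF embryo below, against 5.22% of 12554 transcripts with counts in the 12 libraries, and none had every LOF/LOF embryo above, against 6.83%. Lfng, called in both RPF and RNA, had a ratio difference of -0.09 with an interval of -0.38 to 0.21, and its embryos overlapped. Median differences in RPF/RNA were -0.10 for the presomitic, -0.18 for the Notch and clock (11 of 12 below 0) and 0.05 for the formed somite genes, with 48% of all transcripts below 0. For Tcf15 the ratio difference was 0.45 (-0.31 to 1.20) and for Uncx -0.40 (-1.29 to 0.50), and neither was called. That of Uncx ran from -0.70 to -0.15 with 1 embryo left out. That of Tcf15 was 1.13 with the Y-linked covariate and 1.17 without LOF/LOF replicates 1 and 3, where the edgeR unadjusted p was 0.00911 and 0.00429 and the adjusted p 1.00 and 0.889, and it ran from -0.10 to 0.71 with 1 embryo left out.

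**Figure D3:**
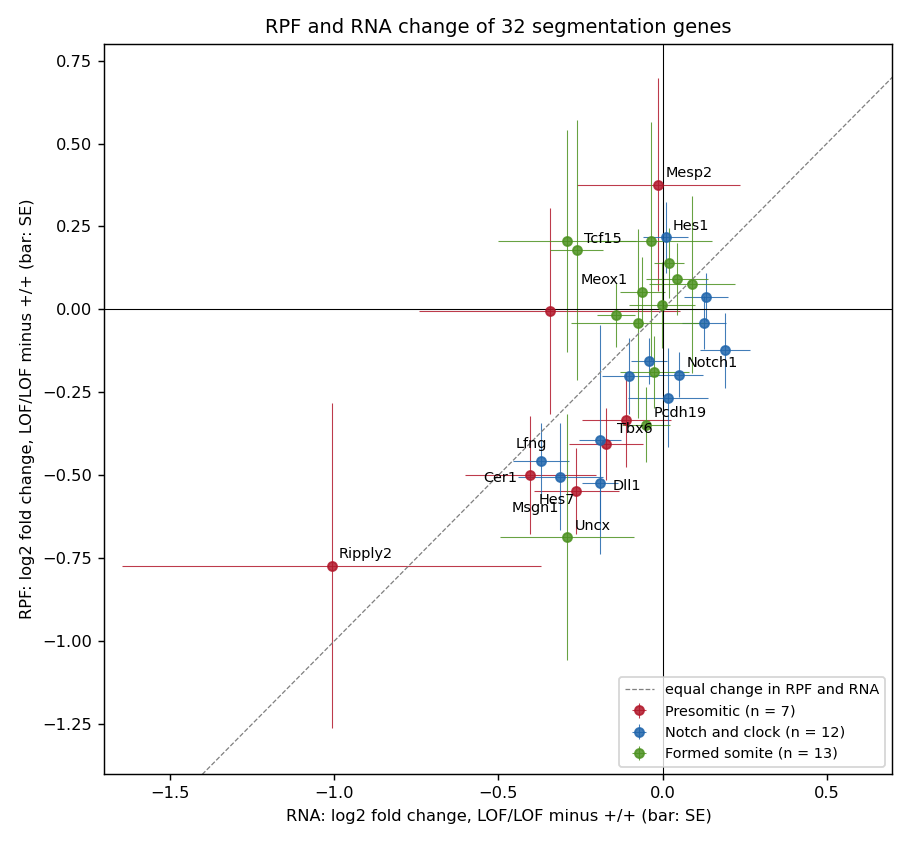
Log2 fold change (Rpl10a LOF/LOF minus wild-type) in RNA on the x axis and in RPF on the y axis for the 32 tested genes, with SE bars and colored by group. The dashed line marks equal change. Msgn1 and Dll1 lie below it, Lfng lies close to it, and the wide bars of Ripply2, Mesp2 and Uncx come with few counts.

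In the wild-type embryos alone, the genes were compared in level per kb, RPF per kb of the counted coding sequence and RNA per kb of transcript. The log2 ratio of the 2 levels had a median of 1.57 in the presomitic, 0.73 in the Notch and clock and 0.07 in the formed somite genes, with 0.75 over all transcripts with lengths. The highest ratio of the members was that of Hes7, at 2.47, 2.23 and 2.30 in the 3 embryos, the 95.7th percentile of all transcripts. Cer1 followed at 2.24, 2.18 and 1.85 and Tbx6 at 1.87, 2.09 and 1.85, and neighbours in this order overlapped, while Hes7 was above Tbx6 in all 3 embryos. Dll3 at 1.77, 1.88 and 1.83 and Msgn1 at 1.54, 1.73 and 1.45 came next, with Ripply1 between them at 2.85, 2.05 and 0.68 and not separate from either.

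At the other end stood Tcf15, with -2.75, -2.08 and -2.03 and a percentile of 1.19, and Nrarp, with -1.28, -1.29 and -1.45 and a percentile of 4.63. Their RNA levels per kb, 16.2 and 15.9 CPM, were above the median of 10.2 over all transcripts, while their RPF levels per kb, 3.38 and 6.28 CPM, were below the median of 13.9. Both genes had under 30 RPF counts in every library. The start region of Tcf15, the member with the lowest ratio, is shown for comparison with those above, with the start codon in capitals.
Tcf15: ggccgggcgcccATGgcgttcgcgctg
Its annotated 5′UTR is 65 nt with 86.2% G and C, the highest share of the members, and the median over all transcripts with a leader of at least 20 nt was 64.8%. By RPF level per kb, Hes1 at 102 CPM and Rbpj at 68.4 CPM led the members. Msgn1 was at 35.4, Lfng at 28.7, Hes7 at 25.2, Dll1 at 23.9 and Tbx6 at 20.1 CPM per kb, and Uncx was lowest at 1.136.

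**Figure D4:**
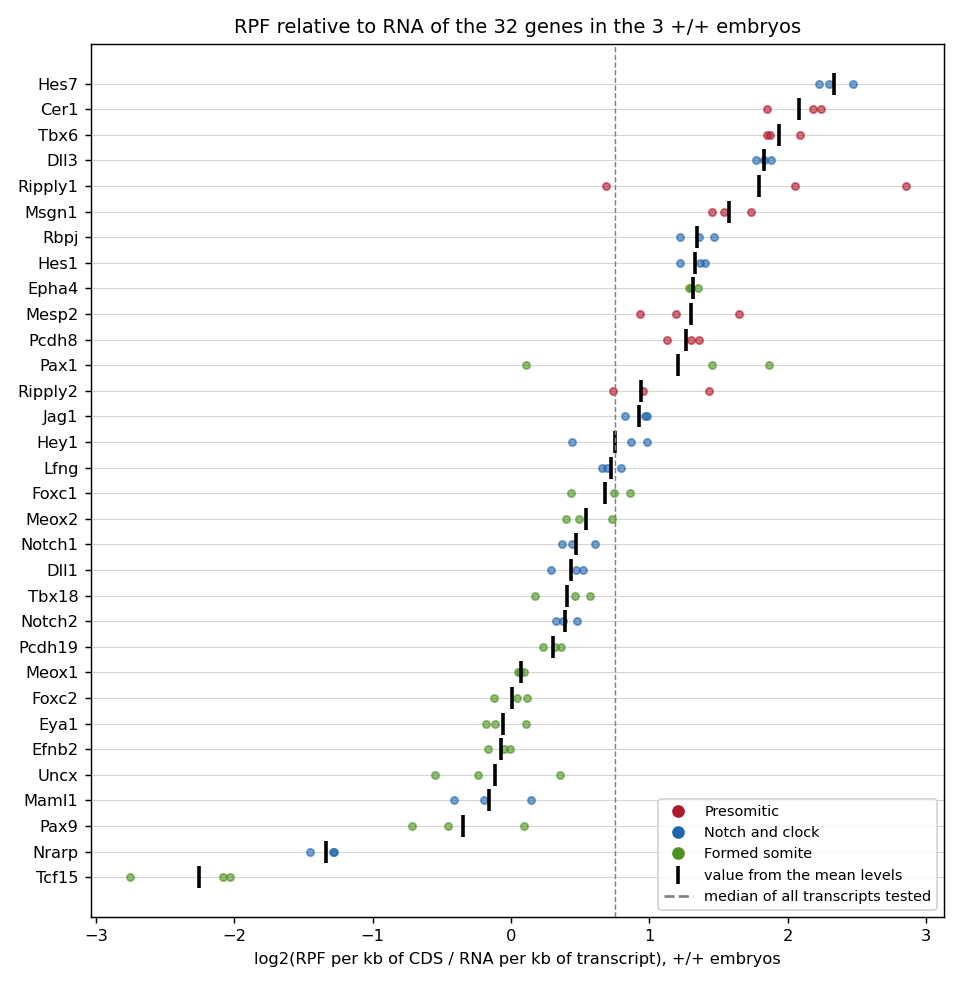
Log2 of RPF per kb of coding sequence over RNA per kb of transcript (x axis) for each of the 32 genes in the 3 wild-type embryos (points, colored by group) and from the mean levels (black bars). The dashed line is the median of all tested transcripts, 0.75. Hes7, Cer1, Tbx6 and Dll3 lie at the top, Nrarp and Tcf15 far to the left.

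Other genes of the same pathways were described from lists by their counts. Of 31 tested Notch pathway genes outside the members (other ligands and receptors, the secretase subunits, sheddases, ligases and targets), 15 had an RPF log2 fold change below 0, with a median of 0.03 and no call. In RNA 1 of the 31 was called lower, against 3.25% of all transcripts. It was Hes5, a Notch target of the neural tube, at 20.99, 24.2 and 22.4 CPM in wild-type and 16.1, 14.5 and 14.9 CPM in LOF/LOF embryos, a log2 fold change of -0.58 (SE 0.09, adjusted p = 0.0118). Of 16 Wnt and FGF genes of the clock and their targets, 6 were below 0 in RPF, with a median of 0.07. The 1 call was Dusp4, lower in RPF, as were 1.15% of all transcripts. Dusp4, a phosphatase that dampens ERK signaling, was at 109, 125 and 127 CPM and 101, 94.8 and 81.9 CPM, with -0.38 (SE 0.09, adjusted p = 0.0901) in RPF and -0.08 (SE 0.06, adjusted p = 0.565) in RNA. Of 16 other genes of the paraxial lineage, 11 were below 0 in RPF with a median of -0.07, and none was called in RPF or RNA.

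The tailbud, from which presomitic mesoderm is fed, was checked by 6 markers (T, Wnt3a, Fgf8, Cdx2, Nkx1-2 and Cyp26a1). All 6 had RPF log2 fold changes below 0, from -0.41 to -0.18 with a median of -0.27, and none was called. Their summed RPF level was 163, 162 and 146 CPM in wild-type and 133, 133 and 125 CPM in LOF/LOF embryos, without overlap. In RNA the sums were 321, 299 and 288 CPM and 298, 269 and 263 CPM, which overlapped. The marker lists of other tissues moved in both directions. Of 6 cardiac markers 4 were called higher in RPF, and of 5 blood markers 2, against 1.05% of all transcripts. Their summed RPF levels were 1376 to 1521 against 1813 to 2173 CPM and 744 to 2389 against 2853 to 4878 CPM, wild-type before LOF/LOF. None of 6 neural and 5 endothelial markers was called in RPF or RNA. Of the neural markers, 5 of 6 had log2 fold changes below 0 in RPF and 5 of 6 in RNA, with medians of -0.12 and -0.13. The 5 endothelial markers were above 0 in both, with medians of 0.09 and 0.16. Apart from a Y-linked gene, no marker was at 0 in any library. The part of these tissues in the values of the segmentation genes was not tested.

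The direction of the 3 called genes and of Tbx6 in RPF was the same in the 15 alternative settings fitted, and their calls were not. Over these settings the RPF log2 fold change of Msgn1 ran from -0.72 to -0.48, of Lfng from -0.51 to -0.35, of Dll1 from -0.67 to -0.44 and of Tbx6 from -0.51 to -0.35. Msgn1 was called in 8, Lfng in 8, Dll1 in 10 and Tbx6 in 4 of them. Leaving out wild-type replicate 1, 2 or 3 or LOF/LOF replicate 3 ended all 3 calls, and 0% to 0.537% of all transcripts were then called lower. Without LOF/LOF replicate 1, Dll1 and Hes7 were called lower, as were 0.633% of all transcripts. Without LOF/LOF replicate 2, 5 genes were called lower (Msgn1, Tbx6, Lfng, Dll1 and Pcdh19) and Hes1 higher, where 6.54% of all transcripts were called lower. Limma-voom with 2 surrogate variables from sva called 9 members lower (Msgn1, Tbx6, Pcdh8, Hes7, Lfng, Dll1, Dll3, Notch1 and Pcdh19), where 5.3% of all transcripts were called lower. With the Y-linked covariate none of the 3 was called, with log2 fold changes of -0.72 for Msgn1, -0.41 for Lfng and -0.58 for Dll1 and adjusted p of 0.235, 0.516 and 0.388 from edgeR. When LOF/LOF replicate 2, the LOF/LOF embryo with Y-linked levels near those of the wild-type, was the sole LOF/LOF embryo compared, 7 members were called lower in RPF (Msgn1, Tbx6, Pcdh8, Hes7, Dll1, Dll3 and Notch1), and 1.83% of all transcripts. The spread of a lone embryo was then taken from the wild-type embryos.

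**Figure D5:**
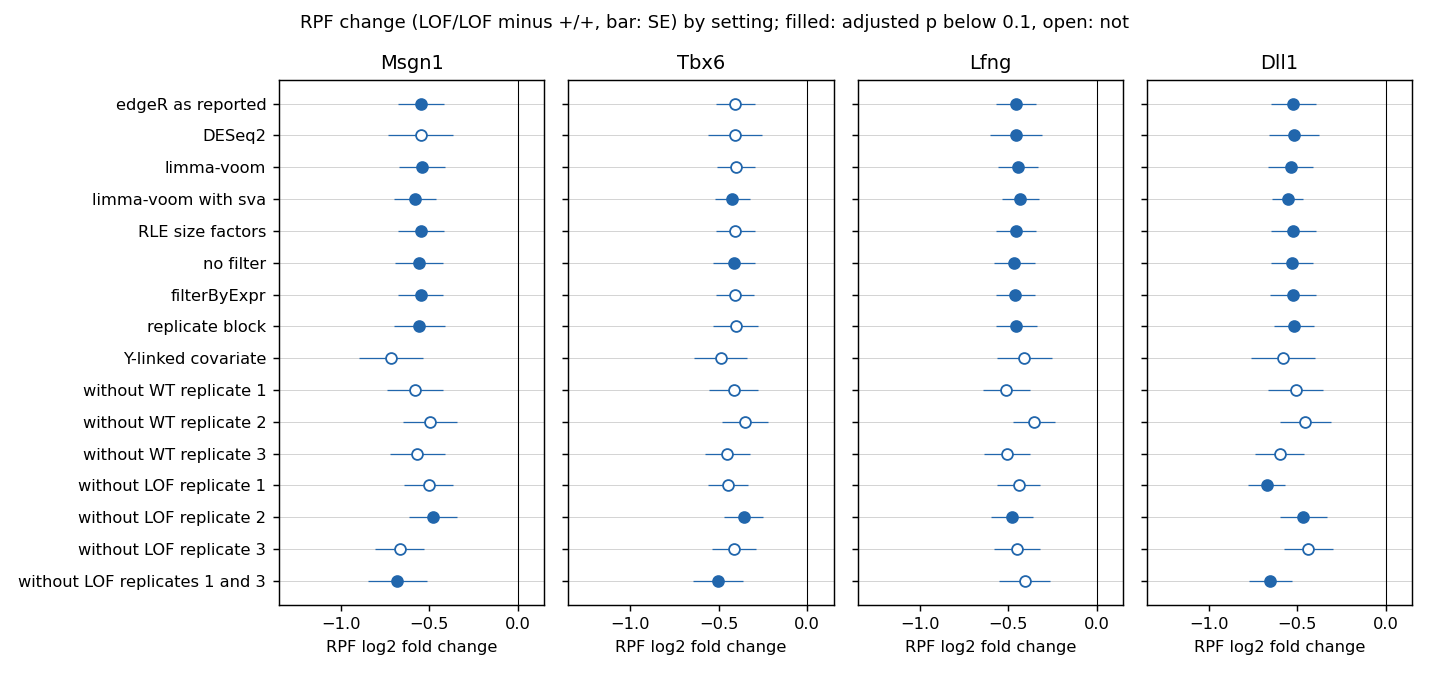
RPF log2 fold change (x axis, with SE bars) of Msgn1, Tbx6, Lfng and Dll1 under the reported edgeR fit and 15 alternatives (rows). Filled points have an adjusted p below 0.1 and open points do not. All points lie below 0.

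Promoters of the called genes were read for the motifs of the pathways named above, since Lfng and Msgn1 are known targets of Notch and Wnt signaling. RefSeq windows (GRCm38.p6) from 250 bases before to 50 after the start were at hand for 27 of the 34 members, 29 windows in all. On both strands, the RBPJ core TGGGAA was found in 34.5% of these windows, from 9 genes, and in 25.6% of all 32851 windows. By group it was found in 12.5% of presomitic, 33.3% of Notch and clock and 55.6% of formed somite windows, so that the group with no called gene had the highest share. The TCF/LEF core CTTTGA was found in 13.8% and in 16% of all, the E-box CACGTG in 6.90% and 7.15%, and the T-box sequence AGGTGT in 13.8% and 13.7%. The 2 windows of Dll1 held none of the 4 motifs. The Lfng window held 2 RBPJ cores, and 1 of them overlaps an E-box. It is shown here with the RBPJ core in capitals, next to a TCF/LEF core of the Msgn1 window, both in the direction of the gene.
Lfng: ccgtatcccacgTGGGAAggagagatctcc
Msgn1: ccttggttcttcCTTTGAactccctccacc
The Lfng stretch lies at chr5:140607221-140607250 on the plus strand, its core starting 108 bases before the RefSeq start, and the Msgn1 stretch at chr12:11209074-11209103 on the minus strand, 143 bases before the start. A match of these letters is a description of the window and shows no binding.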

How the data were processed

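Ribosome-protected fragments (RPF) and RNA of 3 wild-type and 3 Rpl10a LOF/LOF E8.5 embryos were sequenced, 12 libraries in all. The authors trimmed reads, discarded those from rRNA, tRNA and snRNA, aligned the rest with Bowtie2 to canonical transcripts of GRCm38/mm10, and removed PCR duplicates with UMI-tools. The deposited values are raw counts per transcript: RPF reads whose A site lies in the coding sequence without its first 15 and last 5 codons, and RNA reads over the whole transcript. Each count thus stands for about 1 captured molecule. Reads shared by related genes, and how they were assigned, are not given in the sources used here. Because RPF are counted in the coding sequence alone, ribosomes in leaders or near the start codon do not enter.

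Identifiers were matched to GENCODE M21, 21976 of 22467 in the same version and 477 in another, with 14 left unmatched. As in the authors' methods, transcripts above 0.75 CPM in at least 3 RPF libraries were kept, RPF and RNA were TMM-normalized separately, and the threshold was an adjusted p of 0.1. Those methods used limma-voom, sva and locfdr in a design that is not given in the sources used here. Genotypes were therefore compared by edgeR's quasi-likelihood test (edgeR 4.0.16, R 4.3.3), and RPF/RNA as the interaction of genotype and library kind. Sequences came from GENCODE M21 and RefSeq GRCm38.p6. Alternatives were DESeq2 1.42.0, limma-voom 3.58.1 with and without sva 3.50.0 (2 surrogate variables), RLE factors, 2 other filters, a replicate block, a Y-linked covariate and each embryo left out. A fit without LOF/LOF replicates 1 and 3 was added after the data had been seen. The edgeR fits of RPF, RNA and RPF/RNA were tested on simulated counts. So were DESeq2 and limma-voom, with and without sva, in RPF. The other steps were not.

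RPF and RNA libraries with the same number come from the same embryo, and their deviations from the group means correlated at 0.191 to 0.403, so they are paired by embryo. Wild-type and LOF/LOF embryos with the same number are different embryos. The litter of each embryo is not given in the sources used here. The members and all lists were chosen with earlier results of these data known. Given in full were members with an adjusted p below 0.1 or with separate genotypes in RPF or RPF/RNA, and 10 genes whatever their values (Msgn1, Tbx6, Mesp2, Hes7, Lfng, Dll1, Meox1, Tcf15, Foxc2 and Uncx). Of the other lists, genes with an adjusted p below 0.1 were to be named. Those of the endoderm, cardiac and blood markers are given by count.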

Additional observations from a re-analysis of the deposited data

How the results depend on the processing

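RPF calls of segmentation genes moved with the setting, from 0 to 9 of the tested members, while the median RPF log2 fold change stayed below 0 in the 15 alternatives fitted (-0.24 to -0.13). Limma-voom with sva called 9 members, the Y-linked covariate 0, and the fit without LOF/LOF replicates 1 and 3 called 7. Leaving out 1 embryo gave 0 to 6 calls in RPF and 0 to 2 in RNA (Lfng, with Epha4 without LOF/LOF replicate 1, and Maml1, higher, without wild-type replicate 2). In RNA, limma-voom called 2 (Lfng and Dll1) and both the Y-linked covariate and the fit without LOF/LOF replicates 1 and 3 called 0. No alternative called a member in RPF/RNA. The median RPF log2 fold change was -0.24 with the Y-linked covariate, -0.22 without LOF/LOF replicates 1 and 3, and -0.23 to -0.13 with 1 embryo left out. In RNA it was -0.13 without LOF/LOF replicates 1 and 3 and -0.13 to -0.0515 with 1 embryo left out. With the replicate number as a block, the count was 3 in RPF and 1 in RNA, and with the embryo as a block it was 0 in RPF/RNA, with a lowest adjusted p over all transcripts of 0.196. The block thus changed no call count of the members. Same-numbered wild-type and LOF/LOF embryos are different animals, whose deviations correlated at -0.10 to 0.08.

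Differences that changed sign were all uncalled. With the Y-linked covariate these were Meox1 in RPF (-0.00661), Notch1 (-0.0262), Rbpj (0.000560) and Foxc2 (-0.10) in RNA, and Cer1 (0.21) and Lfng (0.0171) in RPF/RNA, and with sva Mesp2 in RNA (0.00662). Without LOF/LOF replicates 1 and 3 they were Meox1 in RPF (-0.0234), Notch1 (-0.0136) and Foxc2 (-0.11) in RNA, and Cer1 (0.15) and Lfng (0.0430) in RPF/RNA. With 1 embryo left out, Tcf15 ran from -0.36 to 0.43 in RPF and from -0.10 to 0.71 in RPF/RNA. In RNA, Mesp2 ran from -0.25 to 0.13, Pcdh19 from -0.12 to 0.0278, Pcdh8 from -0.21 to 0.0452, Notch1 from -0.0220 to 0.14 and Foxc2 from -0.0445 to 0.12. In RPF/RNA, Foxc2 ran from -0.0288 to 0.15, Cer1 from -0.23 to 0.0555 and Hes7 from -0.41 to 0.000968. The cause of these moves was not tested. In 11 of 32 members at least 1 library held fewer than 30 RPF counts, which limits what can be said of Mesp2, Ripply1, Ripply2, Uncx, Tcf15 and Nrarp.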
